A study of Homo sapiens with 7 samples.

Results

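Cadherins are calcium-dependent adhesion proteins that span the cell membrane and bind cadherins on neighbouring cells through repeated extracellular domains. The genes described here were chosen by symbol alone, as numbered cadherins (CDH), protocadherins (PCDH) and the desmosomal cadherins desmocollin and desmoglein (DSC, DSG). The rule found 40 of the 21305 genes in the deposited table. No measured value entered the rule itself, but it was set with earlier results of these data known. The table also holds only genes with at least 10 reads in sum. By family these were 4 type I classical cadherins (CDH1, CDH2, CDH3, CDH4), 3 type II classical cadherins (CDH7, CDH19, CDH24), 1 other cadherin (CDH26), 3 desmosomal cadherins (DSC2, DSG2, DSG3), 7 non-clustered protocadherins, 20 clustered gamma protocadherins and 2 gamma protocadherin pseudogenes. Of the 40 genes, 22 reached the mean of 10 normalized counts over all libraries that was required for testing, and 18 did not. No gene of the clustered alpha or beta protocadherins, which the rule also covers, was in the deposited table, so none could be analysed.

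RNA was sequenced from 501Mel, an established human melanoma cell line of differentiated, pigmented character, after induction of short hairpin RNAs with doxycycline at 2 µg/mL for 72 h. The groups were shlacZ, a control hairpin against the bacterial lacZ gene (n = 3), and the hairpins sh4 (n = 2) and sh8 (n = 2), both directed against the long non-coding RNA GRASLND. All 7 libraries were labelled as induced, so the control group also carried a hairpin and received doxycycline, and according to the methods the cells were lentivirally transduced, puromycin-selected pools rather than single clones. The study's methods speak of biological replicates for cell-based assays in general and do not say how the sequenced replicates were grown. The p-values therefore measure the spread between these libraries, which may be technical. Where both hairpins together are compared with the control, that spread also includes any difference between sh4 and sh8.

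Classical cadherins link through their cytoplasmic tail to catenins and so to actin, desmosomal cadherins link to intermediate filaments, and protocadherins lack the catenin-binding tail of the classical family. In skin, melanocytes adhere to keratinocytes mainly through E-cadherin (CDH1) and P-cadherin (CDH3), and a change from E-cadherin to N-cadherin (CDH2) has often been described in melanoma. The gamma protocadherins are transcribed from a tandem array in which each variable first exon has its own promoter and is spliced to constant exons shared by the whole cluster.

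GRASLND, the target of both hairpins, stood at 309, 330 and 290 normalized counts under shlacZ, at 175 and 131 under sh4 and at 227 and 163 under sh8. The highest knockdown value was below the lowest control value, with a log2 fold change of -0.85 ± 0.19 (SE) and an adjusted p of 0.0402 in limma, and an exact two-sided permutation p of 0.0286, the smallest that 35 splits allow. Depth ranged from 13337317 to 22855232 reads per library. The first shlacZ library stood apart from the other controls, since its read counts differed from theirs by chi-squares of 31.7 and 30.8 on average over genes, against 9.47 between the other two. All 7 melanocytic markers examined were present, and their summed level was 135575 to 146343 normalized counts under shlacZ, 51868 to 59737 under sh4 and 101544 to 104484 under sh8. SOX10, PMEL, MLANA, TYRP1 and DCT were lower than all controls under both hairpins. MITF under sh8 overlapped the control, and TYR overlapped it under both (8192 to 9420 under shlacZ, 9183 to 11314 with knockdown). Of the keratinocyte markers, 1 of 7 was in the table (KRT10, 133 to 206), of the fibroblast markers 1 of 6 (COL1A1, 5.24 to 16.4) and of the endothelial markers 0 of 4. Of the immune markers 2 of 5 were present, with sums of 498 to 675 under shlacZ, 914 to 933 under sh4 and 573 to 678 under sh8; CD68 lay between 441 and 675 in all libraries, LYZ reached 337 and 492 under sh4 against at most 7.28 elsewhere, and PTPRC and CD3E were not in the table. The part of these shifts in the results below was not tested, and in bulk RNA a lower number of cells of one kind cannot be told apart from less RNA per cell.

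In both hairpins together against the control, 4 of the 22 tested genes were called, that is, had an adjusted p under 0.05 and a log2 fold change beyond 1 in either direction. Over all 15420 genes tested, 1.99% were called. The gamma protocadherins PCDHGA9, PCDHGB2 and PCDHGA8 rose and the type II cadherin CDH7 fell. The background by direction was 1.30% higher and 0.694% lower. A further pair, CDH19 and CDH3, passed the adjusted p but not the fold limit, which made 6 members past the adjusted p (5 higher and 1 lower) beside 4.61% of all genes (2.55% higher and 2.06% lower). At an unadjusted p under 0.05 there were 15 members, beside 24.1% of all genes. Of the 22 tested members, 8 had a control mean under 10 and so passed the minimum through the knockdown libraries, which favours genes that are higher there, and no support is drawn from these counts. Without the first shlacZ library, the count of called members was 1 in this comparison, 8 for sh4, 5 for sh8 and 2 for sh4 against sh8.

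With sh4 alone, 9 of the 22 were called against 8.16% of all genes, 8 of them higher (4.79% of all genes) and CDH7 lower (3.37%). The adjusted p alone was passed by 12 members, 11 higher and 1 lower, beside 22.5% of all genes (10.5% higher and 11.9% lower). With sh8 alone, CDH7 was the only member called, against 1.15% of all genes (0.649% higher and 0.506% lower), and CDH7 and CDH19 were the 2 past the adjusted p, beside 2.92% of all genes (1.38% higher and 1.54% lower). Between sh4 and sh8, with a background of 3.19% (1.93% higher in sh4 and 1.26% lower), CDH7 was again the only member, also by the adjusted p alone, which 3.67% of all genes passed as higher and 3.33% as lower. The median log2 fold change over the 22 tested members was 0.88 for sh4 and 0.88 for sh8, beside -0.01 for each over all genes tested. These medians describe members that passed a minimum level and carry no test, and both hairpins share the same control libraries.

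**Figure D1:**
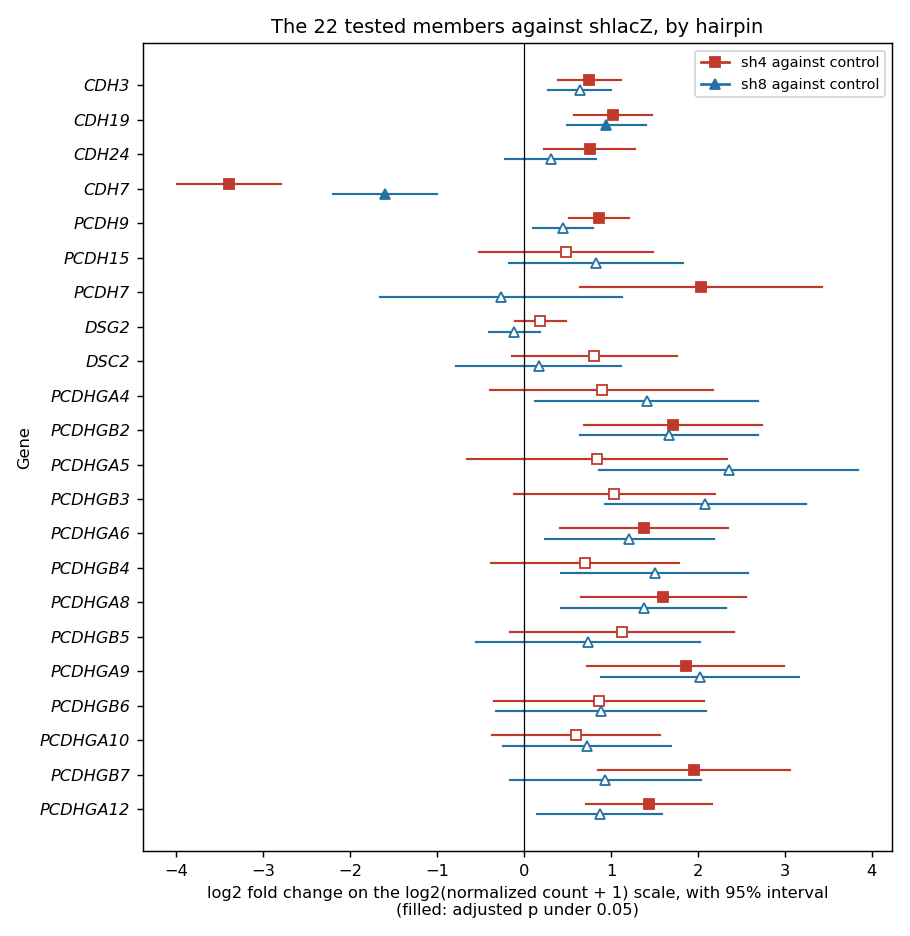
Log2 fold change against shlacZ on the log2(normalized count + 1) scale (x axis) for each of the 22 tested genes (y axis), with sh4 as red squares, sh8 as blue triangles, 95% intervals as lines and filled symbols where the adjusted p was under 0.05. CDH7 lies far to the left at -3.39 for sh4 and -1.60 for sh8, and the 13 gamma protocadherins in the lower rows have their points to the right of 0 under both hairpins, with mostly wide intervals. Of these 13, 7 had a control mean under 10 and passed the minimum through the knockdown libraries.

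The principal classical cadherin of these cells was P-cadherin. Per kilobase of exon length, CDH3 (ENSG00000062038, chr16:68636189-68727468, plus strand, hg38) averaged 349 normalized counts in the control, ahead of the desmosomal DSG2 at 171, CDH19 at 88.8 and CDH24 at 37.8. Then came CDH7 at 11.9, PCDHGA12 at 11.5 and PCDH9 at 11.2, a spacing smaller than the spread of PCDHGA12 between control libraries. CDH3 supplied 66.4% to 75.3% of the summed normalized count of the 7 classical cadherins in every library.

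CDH3 was measured at 1782, 2429 and 2478 normalized counts under shlacZ, 3482 and 3951 under sh4, and 3146 and 3753 under sh8. Every knockdown library lay above every control library. CDH3 rose 1.62-fold upon knockdown (log2 fold change 0.69 ± 0.15, SE, adjusted p = 0.0310). CDH3 rose by 0.75 on the log2 scale with sh4 alone (adjusted p = 0.00949). With sh8 alone the value was 0.64, and its adjusted p of 0.0686 missed the threshold. The hairpins differed by 0.11 on the log2 scale with a 95% interval of -0.29 to 0.51. The pooled adjusted p exceeded 0.05 without any one of the libraries other than the first sh8 library (0.0508 to 0.107), and that under sh4 did so without the second sh4 library (0.0896). The pooled value also did so without the variance trend (0.0896) and with the replicate block (0.0803).

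E-cadherin, the neighbour of CDH3 on chromosome 16 with 9823 bases between the annotated genes, was close to absent. CDH1 (ENSG00000039068, chr16:68737292-68835537, plus strand) was measured at 10.3, 8.38 and 16.5 normalized counts under shlacZ, 5.65 and 1.49 under sh4, and 7.91 and 12.7 under sh8. Both sh4 values lay below all controls, as did 1 of the sh8 values, at 64 reads in all 7 libraries. CDH1 was below the minimum for testing. Per kilobase, its control mean was 1.93 against 349 for CDH3.

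N-cadherin was at the limit of detection. CDH2 (ENSG00000170558, chr18:27932879-28177946, minus strand) had 11 reads summed over the 7 libraries and no read in the second shlacZ or the first sh4 library, where 0 reads allow up to 3.14 and 3.39 normalized counts. The other values were 1.03 and 0.87 under shlacZ, 4.48 under sh4, and 1.32 and 1.82 under sh8. At this depth no difference was detectable. R-cadherin (CDH4) lay between 1.49 and 8.38 in all libraries, and CDH26, a cadherin outside the classical families, between 4.35 and 9.70. Neither reached the minimum for testing.

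**Figure D2:**
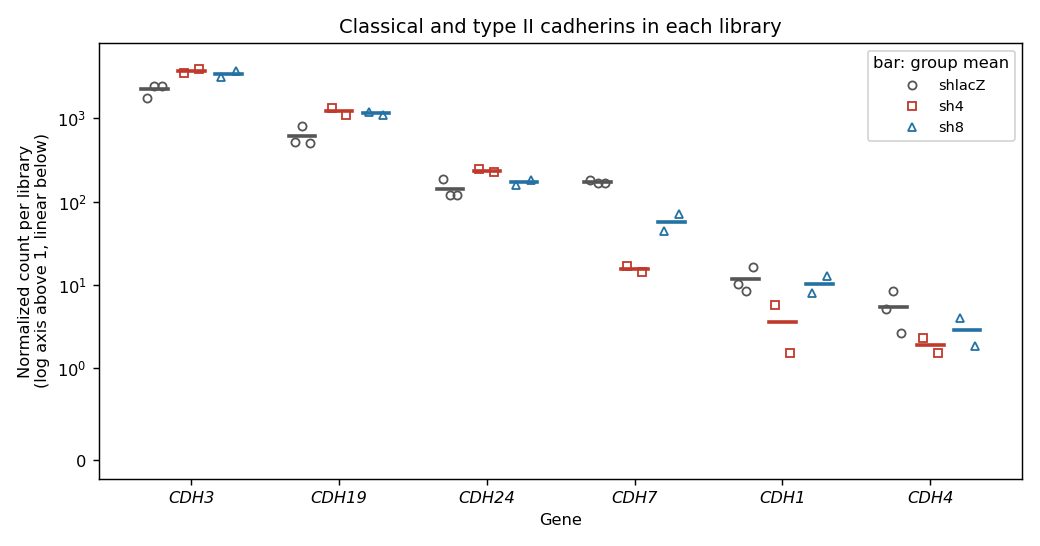
Normalized counts of 6 classical cadherins (x axis) in each library on a log axis that is linear below 1 (y axis), with 1 symbol per library and a bar at each group mean. CDH3 and CDH19 sit higher in all 4 knockdown libraries than in the 3 shlacZ libraries, CDH7 sits at 14.2 to 16.9 under sh4 and 44.8 to 70.1 under sh8 against 168 to 181 in the control, and CDH1 and CDH4 stay low throughout.

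Of the 22 tested members, the change of CDH7 was the largest in each comparison with the control except sh8, where PCDHGA5, PCDHGB3, PCDHGA9 and PCDHGB2 had larger fitted values that missed the threshold. CDH7 is a type II classical cadherin of the neural crest and nervous system. The gene (ENSG00000081138, chr18:65750252-65890337, plus strand) was measured at 181, 168 and 169 normalized counts under shlacZ, 16.9 and 14.2 under sh4, and 44.8 and 70.1 under sh8. The 3 groups did not overlap, with sh4 lowest and sh8 between sh4 and the control. Relative to the control mean, 0.09 of the level was left under sh4 and 0.33 under sh8.

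CDH7 fell by 3.39 on the log2 scale under sh4 (SE 0.27, adjusted p = 8.62e-05). Under sh8 it fell by 1.60 (SE 0.27, adjusted p = 0.0147), and for both hairpins together by 2.50 (SE 0.49, adjusted p = 0.0260). The difference between the hairpins was itself called, with sh4 lower than sh8 by 1.79 (95% interval 1.13 to 2.45, adjusted p = 0.00758). This difference is part of the spread in the pooled fit.

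Of these results the fall under sh4 passed in every one of the 16 alternatives run, with adjusted p of at most 0.00339. The sh8 result exceeded 0.05 without the first (0.122) or second sh8 library (0.0518) or the second (0.0595) or the third shlacZ library (0.0505). The pooled result did so without the first sh4 library (0.0675) or the first (0.0530), second (0.123) or the third shlacZ library (0.0921). The pooled result also exceeded 0.05 without the variance trend and with the replicate block, the higher value being 0.150. The difference between the hairpins exceeded 0.05 without the second sh4 or second sh8 library.

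CDH19 lies next to CDH7 on chromosome 18 and moved the opposite way. CDH19 (ENSG00000071991, chr18:66501083-66604138, minus strand), a type II cadherin characteristic of Schwann cell precursors and melanocytic cells, was measured at 515, 807 and 506 normalized counts under shlacZ, 1328 and 1107 under sh4, and 1197 and 1100 under sh8. All 4 knockdown libraries lay above all controls. CDH19 rose 1.98-fold upon knockdown (log2 fold change 0.99 ± 0.17, SE, adjusted p = 0.0193).

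CDH19 rose by 1.03 on the log2 scale with sh4 (adjusted p = 0.00605) and by 0.95 with sh8 (adjusted p = 0.0370). The difference between these values was 0.08 with a 95% interval of -0.41 to 0.57. The sh8 value exceeded 0.05 without either sh4 library (0.0667 and 0.0672), either sh8 library (0.209 and 0.193) or the third shlacZ library (0.0981). The pooled value did so without the first sh4 (0.0586) or the third shlacZ library (0.0874), and the sh4 value without the first sh4 library (0.0706). With the variance trend left out, adjusted p values were 0.0607 pooled and 0.145 for sh8, with the replicate block it was 0.134 and 0.0524, and for sh8 it was 0.0673 when only the libraries compared were fitted.

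Between the facing 3′ ends of CDH7 and CDH19 lie 610745 bases that hold 2 annotated genes, of which 0 code for protein. The ratio of CDH19 to CDH7, as normalized counts within a library, ran from 2.85 to 4.81 under shlacZ and was 78.4 and 78.1 under sh4 and 26.7 and 15.7 under sh8. A long non-coding RNA annotated inside CDH7 on the same strand (ENSG00000263720, chr18:65865262-65866397) was measured at 7.22, 3.14 and 0.87 under shlacZ, 0 in both sh4 libraries, and 1.32 and 0 under sh8, where 0 reads allow up to 3.39 and 2.24 (sh4) and 2.73 (sh8). Its reads cannot be told apart from unspliced CDH7 RNA.

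Because these neighbours moved apart, the 250 bases before each annotated start are shown from RefSeq (GRCh38.p14), 5′ to 3′ on the strand of the gene. CDH7 has a second annotated start that is not shown. Capitals mark ACAAAG, a core of the sites bound by SOX factors, searched on both strands. Another search on both strands was for CACGTG and CATGTG, the E-box forms bound by MITF-type factors. A last one was for CAGGTG, the form bound by SNAIL-type factors.
CDH7 (chr18:65750002-65750251, plus strand): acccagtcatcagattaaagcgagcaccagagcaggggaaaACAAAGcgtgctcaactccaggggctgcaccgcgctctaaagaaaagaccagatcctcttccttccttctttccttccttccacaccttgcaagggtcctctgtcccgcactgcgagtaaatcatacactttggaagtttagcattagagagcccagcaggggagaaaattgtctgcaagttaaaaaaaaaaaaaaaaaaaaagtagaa
CDH19 (chr18:66604091-66604340, minus strand): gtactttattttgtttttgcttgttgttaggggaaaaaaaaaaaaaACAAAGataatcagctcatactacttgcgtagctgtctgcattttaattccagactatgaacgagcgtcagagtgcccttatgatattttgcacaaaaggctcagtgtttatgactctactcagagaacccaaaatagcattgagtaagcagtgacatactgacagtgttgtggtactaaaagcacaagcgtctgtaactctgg

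Each window shown held 1 match to ACAAAG, beginning 209 bases before the start of CDH7 and 204 bases before that of CDH19, and the window of the second CDH7 start held 0. Over all 35116 RefSeq promoter windows of 300 bases (250 before and 50 after the start), 16.1% held ACAAAG, 7.26% CACGTG, 11.1% CATGTG and 20.6% CAGGTG. The 3 E-box forms had 0 matches in the full windows of CDH7 (both starts) and CDH19. A match of letters is a description and not a binding site.

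CDH24, a type II cadherin able to bind the classical catenins, completed the family in these cells. It was measured at 188, 118 and 119 normalized counts under shlacZ, 245 and 224 under sh4, and 159 and 184 under sh8. The sh4 values lay above all controls and the sh8 values overlapped the highest one. With sh4 CDH24 rose by 0.76 on the log2 scale (adjusted p = 0.0429), a value that exceeded 0.05 without any 1 library except the first shlacZ library (0.0605 to 0.221), without the variance trend (0.0742), with the replicate block (0.0848) and with only the libraries compared (0.0606). For sh8 the log2 fold change was 0.31 with a 95% interval of -0.22 to 0.83 (adjusted p = 0.529).

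The gamma protocadherins made up 20 of the 40 genes. All 20 genes had a higher mean in the knockdown libraries than in the control, beside 52.2% of all genes in the table. The table required 10 reads in sum, and 5 of the 20 had fewer than 10 reads over the control libraries, so they entered it through the knockdown libraries and this count carries no test. By hairpin, 20 had a higher mean under sh4 and 19 under sh8, PCDHGC5 being the exception. In 11 of the 20, every knockdown library lay above every control library, beside 9.04% of all genes. None lay wholly below, as 8.88% of all genes did. Both sh4 libraries were above all controls in 15 gamma genes, beside 23.6% of all genes, and both sh8 libraries in 14, beside 16.0%.

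These genes are not independent measurements. They lie together on chromosome 5 between 141338760 and 141512977 on the plus strand, and their constant 3′ exons, 2177 bases long, are annotated to every one of them, which makes up 27.5% to 64.4% of the annotated exon length of a gene once further overlaps are included. Reads from the constant exons cannot be assigned to a variable exon, and the quantification tool divides them, so levels of single gamma genes are uncertain.

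Added over the 20 genes, the normalized counts were 162, 218 and 206 under shlacZ, 510 and 503 under sh4, and 431 and 471 under sh8. The knockdown libraries stood 2.59-fold (sh4) and 2.31-fold (sh8) above the control mean, with no overlap. Leaving out PCDHGA12, the most abundant member, the same ratios were 2.59 and 2.54. The summed values carry no test, since the sum was formed over members.

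Promoters of the gamma array share a short conserved box. For the genes called in any comparison, the best-matching CGCT stretch is shown in the order of the cluster. The sequences are 40 bases from RefSeq (GRCh38.p14), 5′ to 3′ on the plus strand, with CGCT in capitals. PCDHGA12 was not in the promoter table.
PCDHGB2 (chr5:141359919-141359958): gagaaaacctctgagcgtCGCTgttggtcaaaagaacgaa
PCDHGA6 (chr5:141373833-141373872): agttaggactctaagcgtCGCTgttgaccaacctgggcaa
PCDHGA8 (chr5:141392566-141392605): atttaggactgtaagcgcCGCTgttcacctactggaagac
PCDHGA9 (chr5:141402712-141402751): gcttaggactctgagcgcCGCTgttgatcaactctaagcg
PCDHGB7 (chr5:141417605-141417644): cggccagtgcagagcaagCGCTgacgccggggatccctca

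For contrast, these are the boxes of a pair of tested gamma genes with adjusted p over 0.05 in every comparison and of a C-type gene below the testing minimum.
PCDHGB5 (chr5:141397861-141397900): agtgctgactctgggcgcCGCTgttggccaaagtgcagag
PCDHGA10 (chr5:141412929-141412968): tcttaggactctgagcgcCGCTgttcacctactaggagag
PCDHGC3 (chr5:141475878-141475917): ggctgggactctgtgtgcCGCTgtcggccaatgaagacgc

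Of the 20 gamma genes, 18 had a promoter window, and all 18 held CGCT, as did 70.0% of all promoter windows on either strand. The longer CGCTGTT, which contains CGCT, occurred in 11 of the 18 and in 2.26% of all windows. Both motifs were picked after the gamma sequences had been compared, and the box shown for a gene is the CGCT whose next letters best match GTT, with ties decided by the preceding letters and the distance to the start. The distance from box to RefSeq start ran from 39 to 199 bases with a median of 60.0. The stretch shown for PCDHGB7 lacks the letters that flank CGCT in the other genes shown, so it may not be the shared box. PCDHGB5 and PCDHGA10 carry CGCTGTT and were not called. Whether the box letters go with the calls was not tested.

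PCDHGA12 (ENSG00000253159) was the most abundant gamma gene, at 39.2, 84.8 and 45.2 normalized counts under shlacZ, 133 and 160 under sh4, and 91.0 and 106 under sh8. All knockdown libraries lay above all controls, the lowest of them by a narrow margin over the second shlacZ library. PCDHGA12 rose under sh4 (log2 fold change 1.44 ± 0.32, SE, adjusted p = 0.0114), a call lost without the first (0.0614) or second sh4 library (0.102). Under sh8 the log2 fold change was 0.87 (95% interval 0.15 to 1.59, adjusted p = 0.191).

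PCDHGA9 (ENSG00000261934) had the largest fitted rise of the tested members in the pooled comparison. Its control mean of 8.69 was under 10, so it passed the minimum through the knockdown libraries, which favours such a rise. It was measured at 5.16, 5.24 and 15.7 normalized counts under shlacZ, 35.01 and 26.1 under sh4, and 29.0 and 40.0 under sh8. The knockdown and control libraries did not overlap, although the third shlacZ library was well above the other two. PCDHGA9 rose by 1.94 ± 0.42 (SE) on the log2 scale with both hairpins pooled (adjusted p = 0.0353), the value under sh4 was 1.86 (adjusted p = 0.0267) and the one under sh8 2.03 (adjusted p = 0.0670).

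PCDHGB2 (ENSG00000253910) was measured at 11.4, 9.43 and 5.22 under shlacZ, 35.01 and 24.6 under sh4, and 36.9 and 21.8 under sh8. All knockdown libraries lay above the controls, and the hairpins spanned the same range. PCDHGB2 rose by 1.69 ± 0.38 (SE) on the log2 scale in the pooled fit (adjusted p = 0.0383), with values of 1.71 for sh4 (adjusted p = 0.0244) and 1.66 for sh8 (adjusted p = 0.0875).

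PCDHGA8 (ENSG00000253767) was measured at 13.4, 12.6 and 20.9 under shlacZ, 35.01 and 66.4 under sh4, and 30.3 and 55.5 under sh8. Knockdown and control libraries did not overlap, and replicates of each hairpin differed widely. PCDHGA8 rose by 1.49 ± 0.36 (SE) on the log2 scale in the pooled fit (adjusted p = 0.0461), with 1.60 for sh4 (adjusted p = 0.0234) and 1.37 for sh8 (adjusted p = 0.121).

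Each of these 3 pooled calls rested on most of the libraries. The adjusted p exceeded 0.05 for PCDHGA9 without either sh4 library, the second sh8 library or the first or second shlacZ library (0.0622 to 0.158), for PCDHGB2 without either sh4 library, the first sh8 library or the second or the third shlacZ library (0.0528 to 0.143), and for PCDHGA8 without any 1 library except the first sh8 library (0.0754 to 0.192). In limma without the variance trend, and likewise with the replicate number as a block, 0 members were called in the pooled comparison, and 17 and 14 of the 22 members had an unadjusted p under 0.05. No other library carries the number of the third shlacZ library, so the block takes that library out of the comparison. Quantile normalization also ended the pooled calls of PCDHGA9 (0.0557) and PCDHGA8 (0.0827). With limma-voom on the recovered reads 4 members were called, of which 3 were among the 4 called here, with CDH19 in place of PCDHGA8 (0.0532).

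PCDHGB7 and PCDHGA6 were called under sh4 and not under sh8. PCDHGB7 was measured at 3.10, 5.24 and 6.09 normalized counts under shlacZ, 22.6 and 19.4 under sh4, and 10.5 and 9.10 under sh8 (sh4 log2 fold change 1.96, adjusted p = 0.0190). PCDHGA6 was measured at 13.4, 12.6 and 10.4 under shlacZ, 52.0 and 20.9 under sh4, and 27.7 and 30.9 under sh8 (sh4 log2 fold change 1.38, adjusted p = 0.0463). In both genes all knockdown libraries lay above the controls, and neither differed between hairpins at an adjusted p under 0.05 (0.305 and 0.879).

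The sh4 calls of the gamma genes were lost without 1 library in each case. Without the first sh4 library the adjusted p was 0.130 for PCDHGB7, 0.399 for PCDHGA6, 0.182 for PCDHGA9 and 0.184 for PCDHGB2. Without the second it was 0.0917 for PCDHGB7, 0.208 for PCDHGA8, 0.0980 for PCDHGA9 and 0.0818 for PCDHGB2. Omission of the second shlacZ library ended the calls of PCDHGA6 (0.0900), PCDHGA8 (0.0668) and PCDHGA9 (0.0739), and omission of the third those of PCDHGA6 (0.107) and PCDHGB2 (0.0664). Omission of either sh8 library ended that of PCDHGA6 (0.0661 and 0.0678). So did quantile normalization (0.0626), limma-voom (0.0566), the replicate block (0.0809), a minimum mean of 1 (0.0533) and only the libraries compared (0.0703), and quantile normalization also ended those of PCDHGA8 (0.0551) and PCDHGA9 (just over 0.05).

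PCDHGB5, the second most abundant gamma gene in the control, was measured at 6.19, 11.5 and 31.3 under shlacZ, 24.8 and 36.6 under sh4, and 23.7 and 21.8 under sh8. The knockdown libraries fell within or just above the wide control range, and the pooled log2 fold change of 0.93 had an adjusted p of 0.274. PCDHGB5 and 6 other tested gamma genes (PCDHGA4, PCDHGA5, PCDHGA10, PCDHGB3, PCDHGB4 and PCDHGB6) had an adjusted p over 0.05 in every comparison. Of the 13 tested gamma genes, 7 had a control mean under 10 and passed the minimum through the knockdown libraries. PCDHGA9, PCDHGB2 and PCDHGB7 were among these 7, and the shared direction of the gamma genes carries no test. Over all 13 the log2 fold change ran from 0.60 to 1.96 under sh4 and from 0.73 to 2.35 under sh8. The lowest adjusted p under sh8 was 0.0649. Standard errors in these fits ran from 0.32 to 0.67. Between the hairpins the lowest adjusted p of a gamma gene was 0.261.

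By subgroup, all knockdown libraries lay above all controls in 7 of 10 A-type genes, 4 of 7 B-type genes and 0 of 3 C-type genes. The C-type genes, which stand at the 3′ end of the array and are regulated apart from the A and B types, summed to 9.29, 5.24 and 6.96 normalized counts under shlacZ, 36.1 and 25.4 under sh4, and 5.27 and 10.9 under sh8. The sh4 libraries stood above all others while the sh8 libraries overlapped the control. None of the 3 reached the minimum for testing, and this difference between hairpins was not tested. The A-type sums lay at 108 to 152 in the control, 332 and 335 under sh4 and 275 and 317 under sh8, and the B-type sums lay at 44.4 to 71.3, 142 and 143, and 150 and 144.

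The pseudogenes PCDHGB8P and PCDHGB9P, which have no constant exons in the annotation and shared 0 bases of exon with another gamma gene, were also low. PCDHGB9P was measured at 3.10, 3.14 and 1.74 under shlacZ, 13.6 and 7.46 under sh4, and 3.95 and 6.37 under sh8. PCDHGB8P was measured at 4.13, 3.14 and 2.61 under shlacZ, 7.91 and 8.21 under sh4, and 2.64 and 3.64 under sh8. The sh4 libraries were highest in both, and neither gene was tested.

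**Figure D3:**
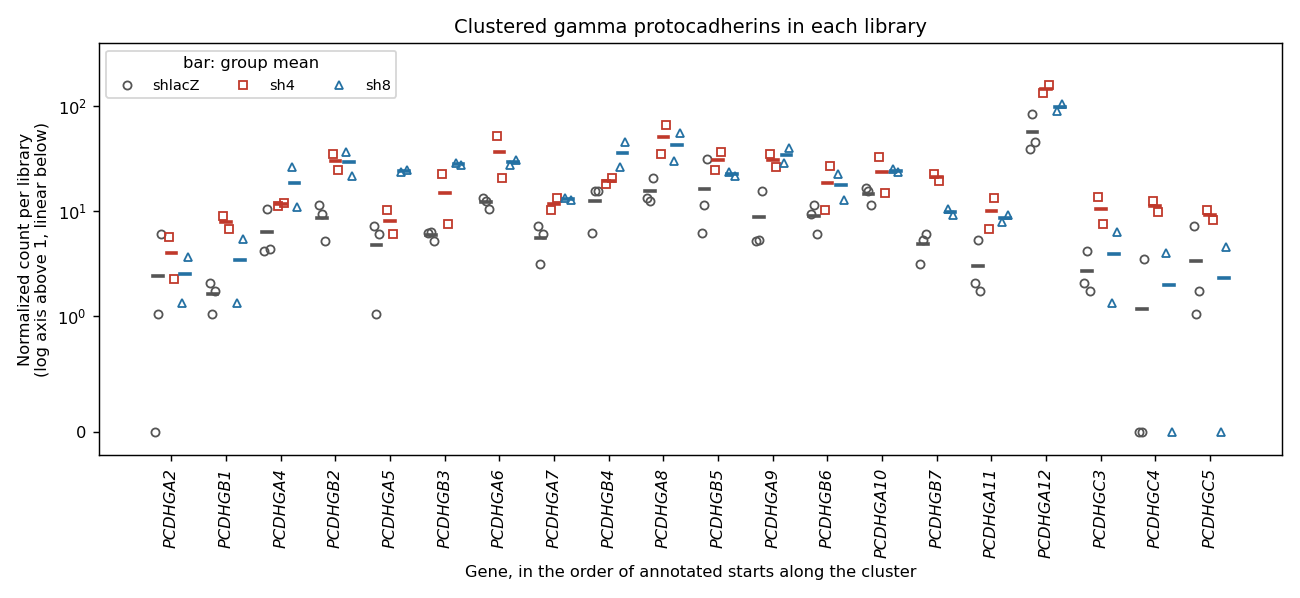
Normalized counts of the 20 gamma protocadherins in each library on a log axis that is linear below 1 (y axis), with genes ordered by annotated start along the cluster (x axis), 1 symbol per library and a bar at each group mean. The group means of sh4 and sh8 lie above that of shlacZ along the A and B types, PCDHGA12 reaches 160 at most, and in the C types at the right only sh4 stands clear of the control.

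Among the non-clustered protocadherins, which are single genes scattered over the genome, PCDH9 was the main one. PCDH9 (ENSG00000184226, chr13:66302834-67230445, minus strand) was measured at 394, 311 and 332 normalized counts under shlacZ, 608 and 643 under sh4, and 505 and 438 under sh8. The groups were in the order shlacZ, sh8, sh4 without overlap. With sh4 PCDH9 rose by 0.86 on the log2 scale (SE 0.15, adjusted p = 0.00400), and this passed in all 16 alternatives. Under sh8 the log2 fold change was 0.45 (95% interval 0.10 to 0.79, adjusted p = 0.160), the pooled value 0.65 had an adjusted p of 0.0561, and the difference between hairpins was 0.41 (adjusted p = 0.186).

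PCDH7 was higher with 1 hairpin and not with the other. PCDH7 (ENSG00000169851, chr4:30720369-31146805, plus strand) was measured at 10.3, 2.10 and 6.09 normalized counts under shlacZ, 21.5 and 28.4 under sh4, and 3.95 and 4.55 under sh8. It rose under sh4 (log2 fold change 2.03 ± 0.62, SE, adjusted p = 0.0420), while the sh8 value was -0.26 (adjusted p = 0.866). With means of 6.17 under shlacZ and 4.25 under sh8, PCDH7 passed the testing minimum only through the sh4 libraries (mean 24.9). That favours a rise under sh4, and no support is drawn from this call. The difference of 2.29 between hairpins had an adjusted p of 0.0750 and so was not called. The sh4 call exceeded 0.05 without any 1 library except the first shlacZ library (0.0545 to 0.210), with the replicate block (0.0557) and with only the libraries compared (0.0502), and PCDH7 had 84 reads over all 7 libraries.

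PCDH15, a protocadherin of the sensory hair cell tip link, was measured at 25.8, 12.6 and 11.3 under shlacZ, 28.2 and 17.2 under sh4, and 26.4 and 30.0 under sh8. Its sh8 values lay above the controls by a narrow margin and its sh4 values overlapped them, and its adjusted p was 0.323 in the pooled comparison. PCDH1, PCDH8, PCDH10 and PCDH17 were below the minimum for testing. PCDH1 was measured at 7.22, 7.33 and 5.22 under shlacZ, 12.4 and 11.2 under sh4, and 1.32 and 3.64 under sh8, so that the hairpins lay on opposite sides of the control at 51 reads in all. PCDH8, chosen for mention after its values were seen, showed the same arrangement at 16 reads in all, with control means of 1.97, sh4 of 4.12 and sh8 of 0.46.

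Desmosomal cadherins are best known from epithelia, and 1 of them was abundant in these melanoma cells. DSG2 (ENSG00000046604, chr18:31498177-31549008, plus strand), the desmoglein with the widest tissue range, was measured at 1621, 1662 and 1578 normalized counts under shlacZ, 1625 and 2088 under sh4, and 1451 and 1552 under sh8. The sh4 libraries overlapped the control and both sh8 libraries lay just below it. The pooled log2 fold change was 0.04 with a 95% interval of -0.27 to 0.34 (adjusted p = 0.897). The hairpin values were 0.19 and -0.11.

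Its desmosomal partner DSC2 was low, with 43.3, 32.5 and 15.7 normalized counts under shlacZ, 53.1 and 47.0 under sh4, and 26.4 and 38.2 under sh8. Both sh4 values lay above the controls, but the log2 fold change of 0.81 had a 95% interval of -0.14 to 1.76 (adjusted p = 0.205). DSG3, the desmoglein of deep epidermal layers, lay between 1.13 and 13.7 in all libraries and was not tested. Per kilobase the control means were 171 for DSG2, 2.44 for DSC2 and 1.74 for DSG3.

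**Figure D4:**
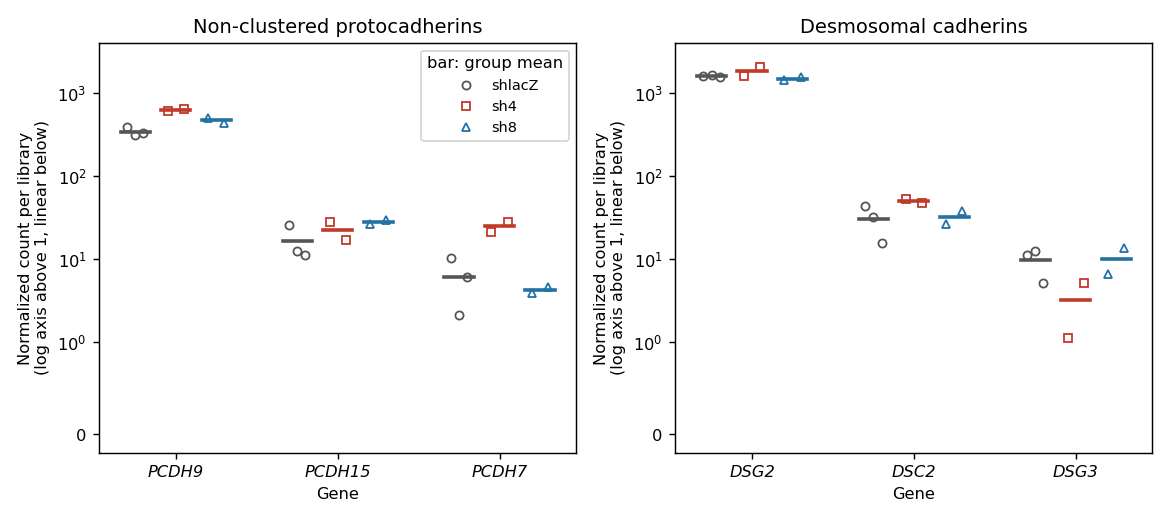
Normalized counts of 3 non-clustered protocadherins (left) and 3 desmosomal cadherins (right) in each library on a log axis that is linear below 1 (y axis), with 1 symbol per library and a bar at each group mean. PCDH9 lies at 311 to 394 under shlacZ, higher under sh8 and highest under sh4 (608 and 643), PCDH7 is highest in the sh4 libraries, and DSG2 stays between 1451 and 2088 in all 7 libraries.

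The cytoplasmic partners of the cadherins were read from a list of 18 catenins and desmosomal plaque genes, of which 14 were tested. Called in the pooled comparison (1.99% of all genes) was 1, namely plakoglobin (JUP), the catenin that serves both adherens junctions and desmosomes. Under sh4 (8.16% of all genes), 3 were called higher (JUP, CTNNA2 and PERP) and 0 lower, and under sh8 (1.15% of all genes) JUP alone. JUP was measured at 46.4, 32.5 and 55.7 normalized counts under shlacZ, 422 and 383 under sh4, and 98.9 and 195 under sh8. The groups did not overlap, with sh8 between control and sh4.

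JUP rose by 3.17 on the log2 scale under sh4 (SE 0.32, adjusted p = 0.000209), by 1.64 under sh8 (adjusted p = 0.0257) and by 2.41 with both together (adjusted p = 0.0233). The sh4 result passed in all alternatives. The sh8 result exceeded 0.05 without either sh4 library (0.0615 and 0.0621), the second sh8 library (0.228) or the second shlacZ library (0.0753), and the pooled one without the first sh4 library (0.0622) or the second (0.125) or the third shlacZ library (0.0678). With the variance trend left out, adjusted p values were 0.102 for sh8 and 0.0719 pooled, and the pooled value was also past 0.05 with the replicate block (0.126) and limma-voom (0.0562), as was that of sh8 with only the libraries compared (0.0692).

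CTNNB1 (beta-catenin) binds the cadherin tail and was measured at 24086, 28562 and 27071 under shlacZ, 19061 and 19377 under sh4, and 26183 and 32016 under sh8. With sh4 it fell by 0.46 on the log2 scale (adjusted p = 0.0348), while the sh8 value was 0.13 (adjusted p = 0.662). The sh4 value exceeded 0.05 without either sh4 library (0.168 and 0.140) or without the shlacZ libraries 2 (0.119) or 3 (0.102). It did so too under total-sum (0.0506) and quantile scaling (0.248) and without the variance trend (0.0830).

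CTNNA1 (alpha-catenin, the link to actin) was measured at 3566, 4265 and 4383 under shlacZ, 5107 and 6275 under sh4, and 5022 and 5587 under sh8. All knockdown values lay above the controls, and CTNNA1 rose under sh4 by 0.48 (adjusted p = 0.0323), a result lost without the second sh4 (0.233), second shlacZ (0.0609) or the third shlacZ library (0.0505) or the variance trend (0.0948). CTNND1 (p120 catenin, which holds cadherins at the membrane) lay between 4118 and 4977 in all libraries, with a pooled log2 fold change of 0.17 (95% interval -0.07 to 0.41, adjusted p = 0.356). DSP (desmoplakin, the link to intermediate filaments) lay at 33.5 to 44.4 under shlacZ, 63.4 to 65.5 under sh4 and 48.2 to 51.4 under sh8, without overlap, and its pooled log2 fold change of 0.59 had an adjusted p of 0.176.

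CTNNAL1 (alpha-catulin, related to the alpha-catenins), named after its values were seen, was measured at 1413, 1446 and 1341 under shlacZ, 705 and 753 under sh4, and 1159 and 1017 under sh8. The 3 groups did not overlap. With sh4 it fell by 0.94 on the log2 scale (adjusted p = 0.000750), short of the fold limit, and this passed 0.05 in all alternatives run. The sh8 value was -0.37 (adjusted p = 0.141).

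CTNNA2 (the neural alpha-catenin) was measured at 44.4, 26.2 and 33.9 under shlacZ, 236 and 175 under sh4, and 68.5 and 69.2 under sh8. With sh4 it rose by 2.54 on the log2 scale (adjusted p = 0.000353). The sh8 value was 0.99 (adjusted p = 0.0940). PERP, a desmosomal membrane protein, was measured at 1057, 1200 and 1352 under shlacZ, 2374 and 2776 under sh4, and 1207 and 1460 under sh8. It rose under sh4 by 1.10 (adjusted p = 0.000939), while the sh8 libraries overlapped the control.

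Of 18 further members of the cadherin superfamily, 9 were tested, and FAT4 and FAT2 were the 2 called in the pooled comparison, beside 1.99% of all genes. FAT4, an atypical cadherin of planar polarity, was measured at 201, 223 and 234 under shlacZ, 523 and 787 under sh4, and 805 and 899 under sh8. It rose under both hairpins, by 1.55 for sh4 (adjusted p = 0.000549) and 1.95 for sh8 (adjusted p = 0.00102), and passed in all alternatives. FAT2, an atypical cadherin of epithelial cells, was measured at 150, 117 and 149 under shlacZ, 45.2 and 32.8 under sh4, and 62.0 and 79.2 under sh8.

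FAT2 fell by 1.39 on the log2 scale upon knockdown (adjusted p = 0.0340) and by 1.81 under sh4 (adjusted p = 0.00120), with a sh8 value of -0.97 (adjusted p = 0.0781). The pooled result was lost without any 1 library except those of sh8 (0.0562 to 0.129), without the variance trend (0.0730) and with the replicate block (0.185). CELSR3, a multipass cadherin, rose under sh4 (log2 fold change 1.26, adjusted p = 0.00158), as did CLSTN3, a synaptic calsyntenin (1.68, adjusted p = 0.00758). The CLSTN3 call was lost without the first (0.0568) or second sh4 library (0.0739). Pooled, CELSR3 had 0.97 (adjusted p = 0.0383), a value lost without either sh4 library or the second or the third shlacZ library (0.0759 to 0.179), without the variance trend (0.0931), with the replicate block (0.161) and with limma-voom (0.0535).

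Among 8 transcription factors that repress E-cadherin, 6 were tested and SNAI2 (Slug) was the only one called, under sh4 (8.16% of all genes) and in sh4 against sh8 (3.19%). SNAI2 was measured at 2663, 3327 and 2543 under shlacZ, 779 and 668 under sh4, and 3289 and 3013 under sh8. With sh4 SNAI2 fell by 1.97 on the log2 scale (adjusted p = 8.00e-05). Its sh8 value was 0.16 with a 95% interval of -0.16 to 0.48. CDH1 was at 5.65 and 1.49 normalized counts in those same sh4 libraries, below all controls and not tested.

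Of the remaining lists, 0 of 3 tested nectins, 0 of 8 tested proteases that cut cadherins and 0 of 13 chromatin factors of the protocadherin cluster, such as CTCF and the cohesin subunits, were called in any comparison, beside the shares of all genes given above (8.16% under sh4). Under sh4 the adjusted p alone was passed by NECTIN3 and NCSTN (higher) and SMCHD1 (lower), 3 genes named after their values were seen. Over these lists the median log2 fold change under sh4 was 0.54 for the nectins, 0.02 for the proteases and -0.04 for the chromatin factors.

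**Figure D5:**
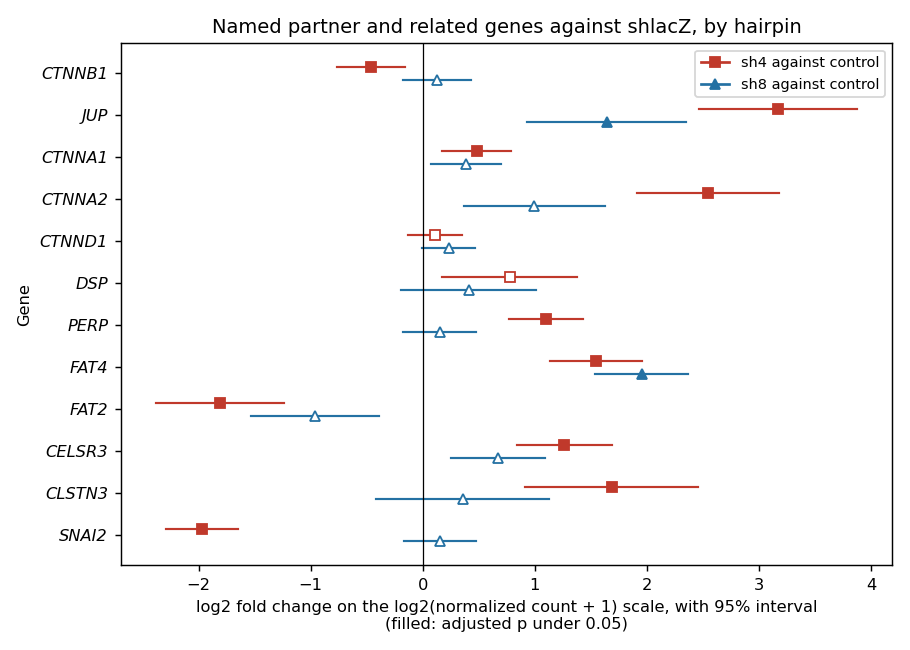
Log2 fold change against shlacZ on the log2(normalized count + 1) scale (x axis) for catenins, plaque genes, related cadherins and SNAI2 (y axis), with sh4 as red squares, sh8 as blue triangles, 95% intervals as lines and filled symbols where the adjusted p was under 0.05. JUP and FAT4 are filled on the right for both hairpins, and SNAI2 lies at -1.97 for sh4 and 0.16 for sh8.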

How the data were processed

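Total RNA of 7 libraries (501Mel, ribosomal RNA depleted, stranded, paired-end) was processed by the authors with Cutadapt, STAR on hg38 and Salmon, and passed to DESeq2. Versions and the annotation release are not given in the sources used here. The authors deposited normalized counts, that is, counts divided by 1 size factor per library, for 21305 genes with at least 10 reads in sum. All values (100%) were whole multiples of 1 read within 0.01, so reads were recovered for depth and 1 added test. Such scaling takes the bulk of genes as unchanged. Columns were matched by name, with 0 columns of other samples.

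limma 3.58.1 (R 4.3.3; empirical Bayes with variance trend) was run on log2(normalized count + 1) for 15420 genes (mean of 10 or more over the libraries), with Benjamini-Hochberg adjustment over all of them. The log2 scale with 1 added makes fold changes of low genes smaller. Both hairpins against shlacZ were compared in a fit with 2 levels, where a difference between sh4 and sh8 counts as spread. Single hairpins were compared in a fit with 3 groups that shared 1 spread. The script was tested on simulated data. Intervals for 0 reads (3 reads) cover counting error only. Coordinates and exon lengths came from GENCODE 44 on hg38, sequences from RefSeq, which had promoter windows for 32 of the 40 members.

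The members and lists were chosen with earlier results of these data known. Named were CDH1, CDH2, CDH3, CDH7 and CDH19, members past an adjusted p of 0.05 in any comparison, the 3 most abundant members of each family in the control, members on opposite sides of the control by hairpin, called genes of the partner lists, and CTNNB1, CTNNA1, CTNND1, JUP and DSP. Alternatives covered the pseudocount (0.5, 10), the minimum mean, scaling, variance trend, replicate block, libraries in the fit, limma-voom (added after seeing the data) and leaving out each library.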

Additional observations from a re-analysis of the deposited data

Results flagged for a closer look

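Several results differed between the hairpins by the test of the difference itself (sh4 against sh8, limma, adjusted over all genes). CDH7 was lower under sh4 than under sh8 by a log2 difference of -1.79. SNAI2 differed by -2.12 and CTNNB1 by -0.59 (adjusted p = 0.0424), both lower under sh4. CTNNA2 was higher under sh4 by 1.55, JUP by 1.53 and PERP by 0.95. Without any single sh4 or sh8 library the adjusted p for CTNNA2 exceeded 0.05 (0.0855 to 0.136), as did that for JUP without the first (0.158) or second sh4 library (0.170) or the first sh8 library (0.203), that for PERP without the second sh4 (0.0984) or first sh8 library (0.0860), and that for CTNNB1 without any library except the first shlacZ library (0.0649 to 0.237). With the variance trend left out, adjusted p values were 0.0808 for JUP, 0.0538 for PERP and 0.111 for CTNNB1. SNAI2 passed in all alternatives. CTNNAL1, added after its values were seen, differed by -0.58 (adjusted p = 0.0294), which exceeded 0.05 without any one library of sh4 or sh8 (0.0753 to 0.214), without the third shlacZ library (0.0589), without the variance trend (0.0820) and with limma-voom (0.0533). The summed melanocytic markers also differed between the hairpins, and their part in these differences was not tested.

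CDH26 had 1 of its 4 knockdown libraries apart from the others (9.04 and 9.70 under sh4, 9.23 and 5.46 under sh8), with a gap of 0.843 of the whole range. Of 36 genes examined in this way it was the only one past the limit, and chance flags about 1 group in 20.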

How the results depend on the processing

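The count of called members in knockdown against control was 4, and it was 0 without the variance trend (17 members at an unadjusted p under 0.05 in limma), 0 with the replicate block (14 members) and 8 when the hairpin effects of the 3-group fit were averaged. For sh4 it was 9, and 6 with quantile normalization, 7 with the replicate block or only the libraries compared, and 8 with limma-voom, a pseudocount of 10 or a minimum mean of 1. For sh8 it was 1, and 2 with the replicate block. For sh4 against sh8 it was 1, and 2 with a pseudocount of 10, quantile normalization, limma-voom or only the libraries compared, PCDH7 being the second gene in each. Leaving out single libraries gave 0 to 4 called members for knockdown, 2 to 8 for sh4 (9 in the full set), 0 to 5 for sh8 and 0 to 2 for sh4 against sh8. GRASLND kept its direction, with -0.85 (adjusted p = 0.0805) without the trend, -0.90 (adjusted p = 0.150) with the block and -0.99 to -0.73 when single libraries were left out, where the adjusted p exceeded 0.05 for every library except the first sh8 library. Where an arm was left with 1 library, that library was assumed to vary like the other groups. Over all genes, the pooled count of calls was 307, 108 without the trend, 42 with the block, 621 with averaged hairpin effects, and 56, 79, 114, 156 and 524 without the second shlacZ, the third shlacZ, first sh4, second sh4 and first sh8 library. The cause of these changes was not tested. Fits without a library also had fewer libraries, and of the pooled fits only the averaged one kept the difference between sh4 and sh8 out of the spread. Whether replicate numbers pair the samples was not settled. Correlations of same-numbered deviations ran from -0.08 to 0.34, and within a group of 2 libraries the deviations mirror each other. The 42 results of single genes gave 672 values, of which 515 stayed on their side of the threshold, 157 lost it and 0 changed sign. The edgeR quasi-likelihood, DESeq2 and TMM alternatives were not run. Members near 10 normalized counts are limited by counting error.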
